A study of Mus musculus with 15 samples.

Results

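The genes described here are 45 transcription factor genes of neural and endodermal development, lineages foreign to fibroblasts, and a set known as targets of Polycomb repression. These genes were followed by their chromatin accessibility in mouse embryonic fibroblasts. They were chosen by name, and a consensus accessibility peak was assigned to a member where the member was the nearest protein-coding gene, with the peak centre inside the gene or within 100 kb of it (mm10). All 45 were found, and they hold 378 of 206367 consensus peaks, from 2 peaks at Dbx1, Hmx3 and Isl1 to 23 at Pax2. By role they are 5 Pax genes, 9 LIM homeobox genes, 7 forebrain and eye homeobox genes, 7 neural tube homeobox genes, 7 basic helix-loop-helix (bHLH) genes, 2 POU genes, 3 neural Sox genes, 3 endodermal factor genes and 2 neural Fox genes. That these genes are bound by Polycomb in the cells studied was not measured here.

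The study measured open chromatin by Omni-ATAC-seq, in which a transposase cuts and tags accessible DNA, in mouse embryonic fibroblasts of C57/B16 background. In 4 groups the labels describe lentiviral delivery of a CRISPRa-VPR-mCherry construct, which recruits an activator to a guided site, together with guides against Fra2 (the protein of the Fosl2 gene) or scrambled guides, and sorting of mCherry+/THY1+ cells: early control, early Fra2, late control and late Fra2. Sample labels give day 3 for early and day 10 for late libraries, while the series design gives days 4 and 11, and early control 3 carries day 4. The fifth group, also labelled day 4, is fibroblasts given 4 µM of the Ezh2 inhibitor GSK343 for 3 days and then a washout day. Each group holds 3 libraries. The labels leave unclear whether inhibitor cells were also transduced and sorted, and the sheet numbers in the titles are 27 to 29 for these libraries and 1 to 12 elsewhere, so the inhibitor cannot be told apart from such a difference in handling. Whether the libraries of a group are separate cultures is not stated, and a p-value here speaks only of how far these libraries scatter, which may be technical scatter.

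Polycomb repressive complexes keep developmental regulator genes silent outside their own lineage. Ezh2 is the catalytic subunit of the complex that methylates histone H3 at such genes, typically over promoters rich in CG dinucleotides, and drugs such as GSK343 block that activity. Fra2 is a member of the AP-1 family of basic leucine zipper factors, which bind mostly at distal elements in fibroblasts and take part in setting the accessible sites of that cell type. Paired-box, LIM homeobox, bHLH and forkhead genes of the set specify neurons, glia, eye, pituitary, thyroid, pancreas, lung and gut, and their loci are usually surrounded by long stretches of noncoding DNA with many distal elements.

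Library totals were 6.75 M reads in peaks in early control 3 and 12.7 to 25.3 M in the other libraries, so 3 reads correspond to between 0.117 and 0.420 CPM (reads per M reads in peaks, scaled here by TMM, a trimmed-mean scaling between libraries). Early control 3 stood apart: its correlation with the other early controls over peaks was 0.801 to 0.807, against 0.907 or more within every other group and 0.935 between early controls 1 and 2, and it was the highest early control at 27 of the 45 members and the lowest at 13. Called differences that were lost without it are given beside the results they touch. Gene-end peaks have their centre at most 1 kb from the annotated start or end coordinate of a protein-coding gene, which can be a neighbour of the assigned gene. CPM at these peaks, summed over a list and divided by its number of genes, was 20.2 at the 30 fibroblast identity genes (71 peaks). It was 4.78 at differentiated neuron and glia genes, 5.65 at macrophage and immune genes and 4.06 at muscle genes. It was 2.85 at differentiated endoderm genes and 2.53 at the 12 endothelial genes (7 peaks). Among these cell type lists the fibroblast list was highest, which matches the label of the cells. The value grows with the number of peaks. Ribosomal protein genes reached 18.8 (88 peaks at 35 genes), so a high value is not particular to fibroblast genes. The targeted gene Fosl2 summed to 214.0 to 251.5 CPM over its 36 peaks in early controls and 250.8 to 257.3 in early Fra2 libraries, a log2 difference of 0.11 ± 0.05 (SE; edgeR adjusted p = 0.120), which measures accessibility and not expression. In late Fra2 libraries Fosl2 summed to 209 to 222 CPM against 218 to 237 in late controls, −0.09 ± 0.05 (SE; edgeR adjusted p = 0.206), and with the inhibitor the difference from early control was −0.19 ± 0.05 (edgeR adjusted p = 0.0589), so it was called in none of the 3. Set directly against the inhibitor, early Fra2 was higher at Fosl2 by 0.30 ± 0.05 (SE; edgeR adjusted p = 9.31e-04). Scaling on gene-end peaks in place of all peaks moved the median log2 difference of all peaks upwards: early Fra2 went from −0.03 to 0.17, late Fra2 from −0.01 to 0.22 and the inhibitor from 0.00 to 0.14. Every direction below is therefore relative to a typical peak.

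Members were open in these fibroblasts, but weakly so at their promoters. A consensus peak lay within 1 kb of a RefSeq start site for 25 of the 38 members with a start site in the promoter table (65.8%), about the share among all genes (64.7%), yet the strongest such peak had a median of 3.71 CPM against 10.1 CPM over all genes with one. The consensus peaks compared are 502 bp wide, so these levels are per length. Of the 45 gene-end peaks of members, 1 reached 10 CPM (2.22%), against 27.7% of all gene-end peaks, and the median was 3.15 against 6.03 CPM. That peak belongs to Lhx9 (chr1:138848481-138848982), a LIM homeobox gene of gonad and forebrain, at 12.5 CPM over all libraries. For comparison, the median of the strongest start-site peak was 3.68 CPM in other neural and endodermal regulators, 4.61 in Hox genes, 6.52 in mesodermal and limb regulators and 11.4 in fibroblast identity genes. No test was made of these levels, which describe peaks that were called in at least some libraries.

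**Figure D1:**
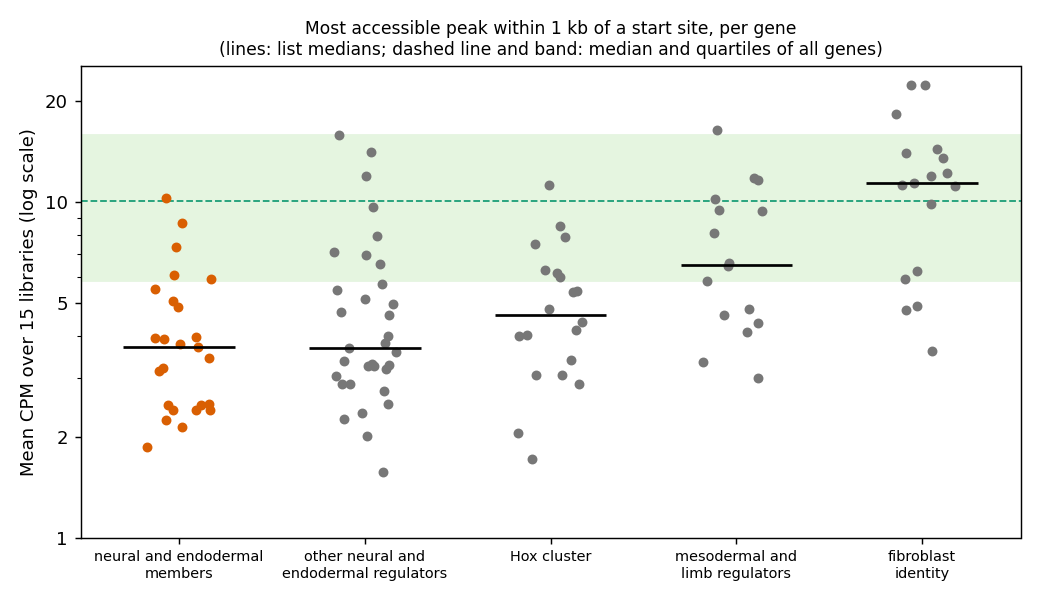
Level of the strongest peak within 1 kb of a start site, 1 point per gene, as CPM averaged over 15 libraries (log axis), for the members and for comparison gene lists. The band marks the quartiles of all genes (5.81, 10.1 and 15.9 CPM), and among the members Lhx4 (10.3 CPM) alone exceeds its middle.

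By role, start-site peaks were found as follows. Among LIM homeobox genes, which encode factors of motor neurons, interneurons, pituitary and gonad, 8 of 8 genes in the promoter table had a start-site peak, with a median of 4.52 CPM and the highest at Lhx4, a pituitary and motor neuron factor (10.3 CPM). Of the 5 Pax genes, Pax2 had one (3.77 CPM) and Pax5, Pax6, Pax7 and Pax8 had none. Forebrain and eye genes had one in 5 of 6 and neural tube genes in 3 of 6, with medians of 2.40 and 5.51 CPM. It was present at 3 of 5 bHLH genes (median 3.15 CPM), both POU genes, 1 of 3 neural Sox genes, and Foxa1 and Foxa2, the endodermal pioneer factors (median 4.15 CPM). Distal peaks could be stronger than any promoter peak of the set: the most accessible member peak, at 25.7 CPM, lay 17.2 kb from Six3 (chr17:85596177-85596678), a forebrain and eye gene, and the next, at 18.1 CPM, inside Pax8 (chr2:24453158-24453659), a thyroid and kidney gene. Summed over a gene's peaks, Pax8 (75.9 CPM), Pax2 (74.7 CPM) and Pax7 (61.5 CPM) were highest and Olig2 (7.93 CPM), Pou4f1 (6.90 CPM) and Dbx1 (5.86 CPM) lowest, a sum that grows with the number of peaks. Of the 378 peaks, 45 were at a gene end, 120 elsewhere in the gene and 213 outside it; exon and intron boundaries were not used here.

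Promoters of the set are rich in CG dinucleotides: the 50 RefSeq promoter windows of members (300 bases each, GRCm38.p6, the assembly named mm10) had a median of 18.5 CG against 7 over 32851 windows, and 50 of 50 held at least 1, against 94.6% of all. The AP-1 motif TGANTCA, which reads the same on both strands, was found in 2 of 50 member windows (4%, Lhx4 and Lhx6), against 7.81% of all windows, and the CRE motif TGACGTCA, which does not overlap it, in 2 of 50 (4%, Foxd3 and Pax6) against 1.79%. Shown are the promoters of the 4 members whose called gene-end peak covers the whole window, because the promoter results below turn on them. Capitals mark CG dinucleotides and motif matches, and each window runs 5′ to 3′ on the minus strand from 250 bases before to 50 bases after the start: Nkx6-2 at chr7:139582748-139583047, Lhx1 at chr11:84525485-84525784, Isl1 at chr13:116309639-116309938 and Lhx6 at chr2:36105359-36105658.
Nkx6-2: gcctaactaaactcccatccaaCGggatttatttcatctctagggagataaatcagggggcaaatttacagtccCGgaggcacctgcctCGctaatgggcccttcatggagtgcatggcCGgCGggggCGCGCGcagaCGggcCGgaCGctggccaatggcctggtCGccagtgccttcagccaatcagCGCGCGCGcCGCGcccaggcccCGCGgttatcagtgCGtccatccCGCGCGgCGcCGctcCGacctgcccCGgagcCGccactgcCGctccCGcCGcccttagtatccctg
Lhx1: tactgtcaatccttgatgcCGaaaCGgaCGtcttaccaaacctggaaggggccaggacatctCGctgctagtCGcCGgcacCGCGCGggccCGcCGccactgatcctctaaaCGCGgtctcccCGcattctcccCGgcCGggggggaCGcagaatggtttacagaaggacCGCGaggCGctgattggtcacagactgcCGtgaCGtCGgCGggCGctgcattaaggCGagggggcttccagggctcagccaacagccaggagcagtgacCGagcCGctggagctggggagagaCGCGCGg
Isl1: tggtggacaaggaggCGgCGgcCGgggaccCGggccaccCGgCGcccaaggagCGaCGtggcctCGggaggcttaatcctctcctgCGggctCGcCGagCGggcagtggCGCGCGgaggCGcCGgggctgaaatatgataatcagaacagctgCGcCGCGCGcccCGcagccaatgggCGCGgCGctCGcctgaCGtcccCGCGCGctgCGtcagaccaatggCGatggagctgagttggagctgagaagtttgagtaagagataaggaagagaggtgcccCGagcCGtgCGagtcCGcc
Lhx6: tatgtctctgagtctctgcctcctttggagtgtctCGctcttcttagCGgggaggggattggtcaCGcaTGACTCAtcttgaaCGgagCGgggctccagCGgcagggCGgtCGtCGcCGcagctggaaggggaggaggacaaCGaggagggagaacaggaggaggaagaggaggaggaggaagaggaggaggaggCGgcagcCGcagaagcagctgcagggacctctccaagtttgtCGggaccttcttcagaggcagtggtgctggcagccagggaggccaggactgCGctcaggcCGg
Nkx6-2, Lhx1 and Isl1 carry 32, 31 and 37 CG, counts reached by 9.52%, 10.6% and 5.58% of all windows, and neither motif. Lhx6 carries 16 CG, a count reached by 33% of windows, and 1 AP-1 match, the run TGACTCA in capitals. A match is a run of letters and was not tested as a binding site.

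Early Fra2 activation was compared with early scrambled control to ask which member elements gain or lose accessibility soon after induction. At 25 of the 378 peaks accessibility was higher and at 18 lower (edgeR quasi-likelihood test, adjusted p under 0.05, which is what "called" means below), that is 6.61% and 4.76%, where 10.1% and 4.91% of all tested peaks were called. The median log2 difference was −0.11 at member peaks and −0.03 at all peaks. The called peaks sat in 25 genes, with 20 genes having none, and 6 genes (Lhx1, Lhx2, Nkx6-1, Pax2, Pax8 and Sox17) had peaks called in each direction. The matching shares of all genes are not given here. Of the higher peaks 19 of 25 lay outside the gene, at a median of 36.1 kb, and of the lower peaks 11 of 18, at 15.3 kb, where 213 of all 378 (56.3%) lie outside. Over all tested peaks, 49.8% of higher and 31.1% of lower calls lay outside, against 39.6% of all those tested. Those shares include peaks too far from any gene to be assigned, which members cannot have, so the comparison is not like for like. The 2 groups of libraries did not overlap at 24 of the 25 and 13 of the 18. The same share over all called peaks is not given here, so these counts describe the single peaks alone. Differences below are log2 differences with their SE, and CPM values are in the order of libraries 1, 2 and 3. Among the 45 gene-end peaks none was called higher and 3 lower, where 2.18% and 7.87% of all gene-end peaks were. In these bulk libraries, fewer cells with an open site and less openness per cell cannot be told apart.

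**Figure D2:**
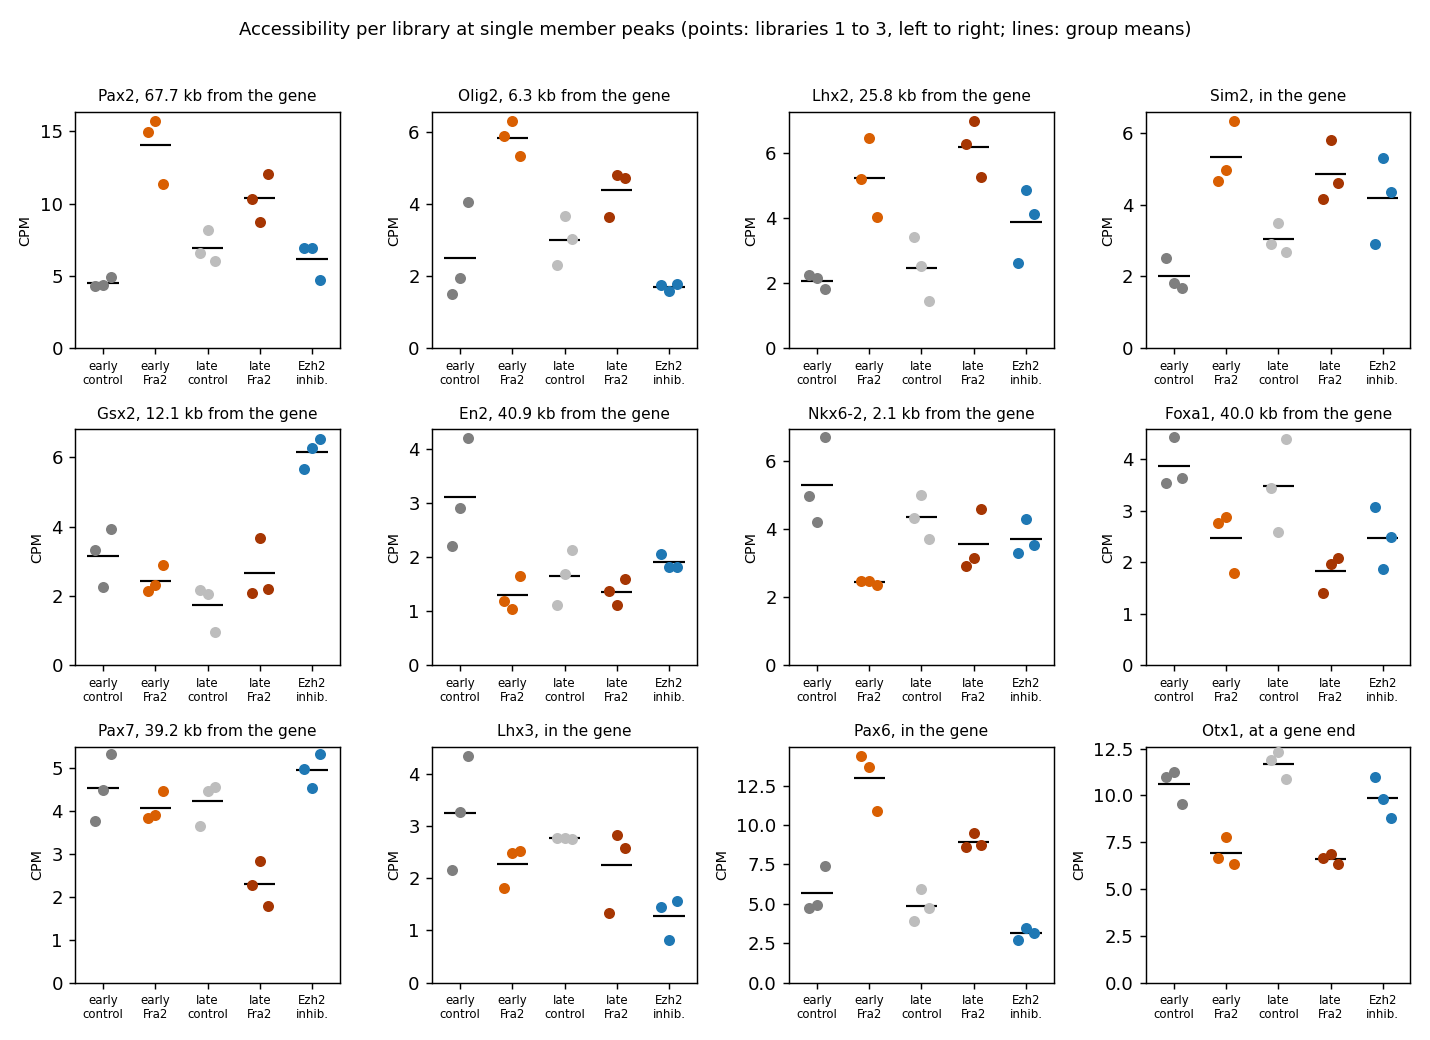
Accessibility (CPM, linear axis from 0) of 12 member peaks in each of the 15 libraries, 1 panel per gene and 1 point per library. Pax2, Olig2, Lhx2 and Sim2 are higher in early Fra2 than in early control. Pax2, Lhx2 and Sim2 are also higher in late Fra2 than in late control. Sim2 and Gsx2 are higher with the inhibitor than in early control. En2 and Nkx6-2 are low in early Fra2, and Pax6 is high with Fra2 and low in the inhibitor.

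Pax genes, which pattern midbrain and hindbrain, eye, kidney and thyroid, had 7 of 86 peaks higher and 3 lower. The largest gain of the set was 67.7 kb upstream of Pax2 (chr19:44678666-44679167), a gene of kidney, inner ear and the midbrain-hindbrain boundary. It measured 4.29, 4.35 and 4.90 CPM in early controls 1, 2 and 3 and 15, 15.7 and 11.4 CPM in early Fra2 libraries 1, 2 and 3, a log2 difference of 1.66 ± 0.18 (SE; edgeR adjusted p = 1.04e-09). All 3 Fra2 libraries stood well above the 3 controls. Other Pax2 peaks rose, 36.1 kb beyond the gene by 1.25 ± 0.26 and inside it by 0.77 ± 0.28 on the log2 scale. In the other direction, a Pax2 peak next to a start site fell by 0.64 ± 0.21, and one 28.8 kb from the gene fell by 1.86 ± 0.59 although its groups overlapped, with control values of 0.751, 2.25 and 4.20 CPM, and gave −1.27 with no call (edgeR adjusted p = 0.0991) without early control 3. Summed over its 23 peaks, Pax2 gave −0.01 ± 0.08 and was not called (edgeR adjusted p = 0.910).

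Inside Pax6 (chr2:105675139-105675640), the eye and pancreas regulator, 4.72, 4.93 and 7.42 CPM in early controls became 14.4, 13.7 and 10.9 CPM in early Fra2, 1.26 ± 0.17 (SE; edgeR adjusted p = 2.70e-07) on the log2 scale. The groups did not overlap, although early control 3 was closer to the Fra2 libraries than the other controls were. Pax8, needed for thyroid and kidney, had its largest gain 4.38 kb upstream (chr2:24479731-24480232), from 5.90, 4.21 and 4.76 to 9.40, 10.7 and 11.0 CPM, 1.03 ± 0.18 (SE; edgeR adjusted p = 2.03e-05). Another site, 42.9 kb upstream of Pax8, fell by 0.74 ± 0.20, so gains and losses lay side by side at this gene as at Pax2.

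LIM homeobox genes had 3 of 78 peaks higher and 5 lower. Lhx2, a selector of forebrain and eye, gained 25.8 kb upstream (chr2:38313199-38313700): 2.25, 2.18 and 1.82 CPM in early controls and 5.22, 6.48 and 4.04 CPM in early Fra2, 1.29 ± 0.25 (SE; edgeR adjusted p = 1.39e-04). On its other side, 25.5 kb past the gene, a peak fell by 0.65 ± 0.21, with overlapping groups. A peak inside Lhx1, a head organizer and kidney gene, rose from 1.82, 2.25 and 1.26 to 4.13, 3.76 and 3.68 CPM, 1.06 ± 0.26 (SE; edgeR adjusted p = 0.00304). The groups at both gains were apart. Among the losses, a start-site peak of Lhx9 fell by 0.63 ± 0.20 and the gene-end peak of Lhx5, a hypothalamic factor, by 0.51 ± 0.18 (edgeR adjusted p = 0.0497). A peak 90.9 kb from Lhx5 fell by 0.94 ± 0.30, but gave −0.49 and lost its call without early control 3.

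bHLH genes, which drive neurogenesis and oligodendrocyte formation, had 6 of 57 peaks higher and none lower. Olig2, the oligodendrocyte and motor neuron factor, gained 6.35 kb from its end (chr16:91234773-91235274), with 1.5, 1.96 and 4.06 CPM in early controls and 5.89, 6.32 and 5.33 CPM in early Fra2, 1.38 ± 0.25 (SE; edgeR adjusted p = 4.02e-05). Early control 3 was again the control nearest to the Fra2 libraries, and the groups were apart. Summed over its peaks, Olig2 had the largest gene-level gain of the set, 4.83, 4.06 and 9.24 CPM in early controls against 11.9, 10.9 and 12.7 CPM, 1.08 ± 0.20 (SE; edgeR adjusted p = 7.78e-04). Olig1 and Olig2 are neighbours on chromosome 16, so peaks between them were given to the nearer. Sim2, a factor of the nervous system midline, gained inside the gene (chr16:94114652-94115153), from 2.52, 1.81 and 1.68 to 4.65, 4.96 and 6.34 CPM, 1.33 ± 0.24 (SE; edgeR adjusted p = 4.31e-05), with no overlap. Sim1, a hypothalamic gene, rose by 0.77 ± 0.25 (edgeR adjusted p = 0.0298) at a peak 16.2 kb beyond it, and by 0.58 with no call (edgeR adjusted p = 0.0964) without early control 3.

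Neural tube homeobox genes had 1 of 37 peaks higher and 6 lower, 3 of them at Nkx6-2. Nkx6-2, a gene of ventral progenitors and oligodendrocytes, lost 2.11 kb upstream (chr7:139584654-139585155): 4.99, 4.21 and 6.72 CPM in early controls fell to 2.47, 2.48 and 2.38 CPM, −1.07 ± 0.23 (SE; edgeR adjusted p = 5.21e-04). Its summed level fell from 26.8, 26.4 and 36.0 to 19.9, 20.9 and 21.2 CPM, −0.50 ± 0.11 (SE; edgeR adjusted p = 0.00353), and both drops stayed called when each library was left out in turn. En2, a midbrain-hindbrain gene, fell 40.9 kb away from 2.20, 2.90 and 4.20 to 1.19, 1.04 and 1.66 CPM, −1.20 ± 0.35 (SE; edgeR adjusted p = 0.0125). In both genes the Fra2 libraries lay below every control. The gain, 23.2 kb upstream of Nkx6-1, a gene of ventral neural tube and pancreatic beta cells, went from 10.4, 8.49 and 6.86 to 17.0, 16.5 and 15.9 CPM, 0.90 ± 0.16 (SE; edgeR adjusted p = 3.78e-05).

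Forebrain and eye genes had 2 of 44 peaks higher (Six6 and Otx2) and 2 lower (Otx1 and Gsx2). At a gene-end peak of Otx1 (chr11:22001441-22001942), a forebrain and inner ear gene, 11.0, 11.2 and 9.52 CPM in early controls fell to 6.65, 7.75 and 6.34 CPM, −0.64 ± 0.16 (SE; edgeR adjusted p = 0.00380). Otx1 has no entry in the promoter table, so whether this peak lies at its start is not given here. It is therefore not among the start-site peaks counted below. Every Fra2 library was below every control. Six6, an eye and pituitary gene, rose 41.4 kb downstream by 0.79 ± 0.18 (SE; edgeR adjusted p = 0.00153).

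Endodermal factor genes had 3 of 29 peaks higher and 1 lower, neural Fox genes 3 of 14 higher (all at Foxb1, a diencephalic gene) and none lower, POU genes 1 of 12 lower (Pou3f2, used to turn fibroblasts into neurons), and neural Sox genes none of 21 called. Foxa2, which opens chromatin in endoderm and floor plate, gained 91.7 kb downstream (chr2:147950878-147951379), with 1.88, 1.23 and 3.08 CPM in early controls and 4.94, 4.32 and 3.53 CPM in early Fra2, 1.17 ± 0.26 (SE; edgeR adjusted p = 9.43e-04). The neighbouring called peak, which overlaps it and so can share reads, rose by 1.06 ± 0.27. Summed over its peaks, Foxa2 rose from 44.5, 48.7 and 50.7 to 57.2, 58.8 and 58.2 CPM, 0.28 ± 0.07 (SE; edgeR adjusted p = 0.00555), with no overlap. Sox17, the definitive endoderm factor, fell inside the gene by 2.06 ± 0.43 (SE; edgeR adjusted p = 4.15e-04), but its control values were 1.56, 2.54 and 15.8 CPM against 1.09, 1.28 and 1.95 CPM, so the drop rests on early control 3 and gave −0.51 with no call without it. A peak 88.9 kb from Sox17 rose by 1.32 ± 0.43 (edgeR adjusted p = 0.0269).

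Summed over each gene's peaks, 5 of 45 members were higher in early Fra2 and 6 lower, where 9.61% and 14.3% of all genes were called. The members that rose were Olig2, Foxb1 (0.38 ± 0.13, groups overlapping), Lhx8, a basal forebrain gene (0.29 ± 0.08), Foxa2 and Pax6 (0.23 ± 0.08). Those that fell were Dbx1, an interneuron gene (−0.56 ± 0.18), Nkx6-2, Nkx2-1, the thyroid and lung factor (−0.43 ± 0.15), Lhx5 (−0.32 ± 0.10), Pax5 (−0.31 ± 0.09) and Otx1 (−0.31 ± 0.08). Without early control 3, 2 of these 6 stayed called (Nkx6-2 at −0.37 and Otx1 at −0.30). Lower genes numbered 2 without early Fra2 1, 3 without early Fra2 2 and 10 without early control 1, and higher genes 2 without early Fra2 3 and 3 without early Fra2 2 or early control 1. At peak level, 23 of the 25 higher peaks and 10 of the 18 lower peaks stayed called without early control 3, which was the highest control at 12 of those 18. Besides the Pax2, Lhx5 and Sox17 peaks given above, the lower peaks lost were those of Dbx1 (−0.58 with all libraries and −0.58 without it), Pou3f2 (−0.58 and −0.41), Gsx2 (−0.92 and −0.65), Lhx1 (−0.64 and −0.53) and the Nkx6-2 gene end (−0.92 and −0.57), and the higher peaks lost were those of Sim1 and, inside Pax8, a peak at 0.54 and 0.39. Lower peaks also numbered 10 without early Fra2 1, early Fra2 2 or early control 2. Scaled on gene-end peaks, 41 member peaks were higher and 5 lower (18.4% and 1.49% of all peaks were), and 14 genes higher and 0 lower (34% and 1.75% of all genes were).

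**Figure D3:**
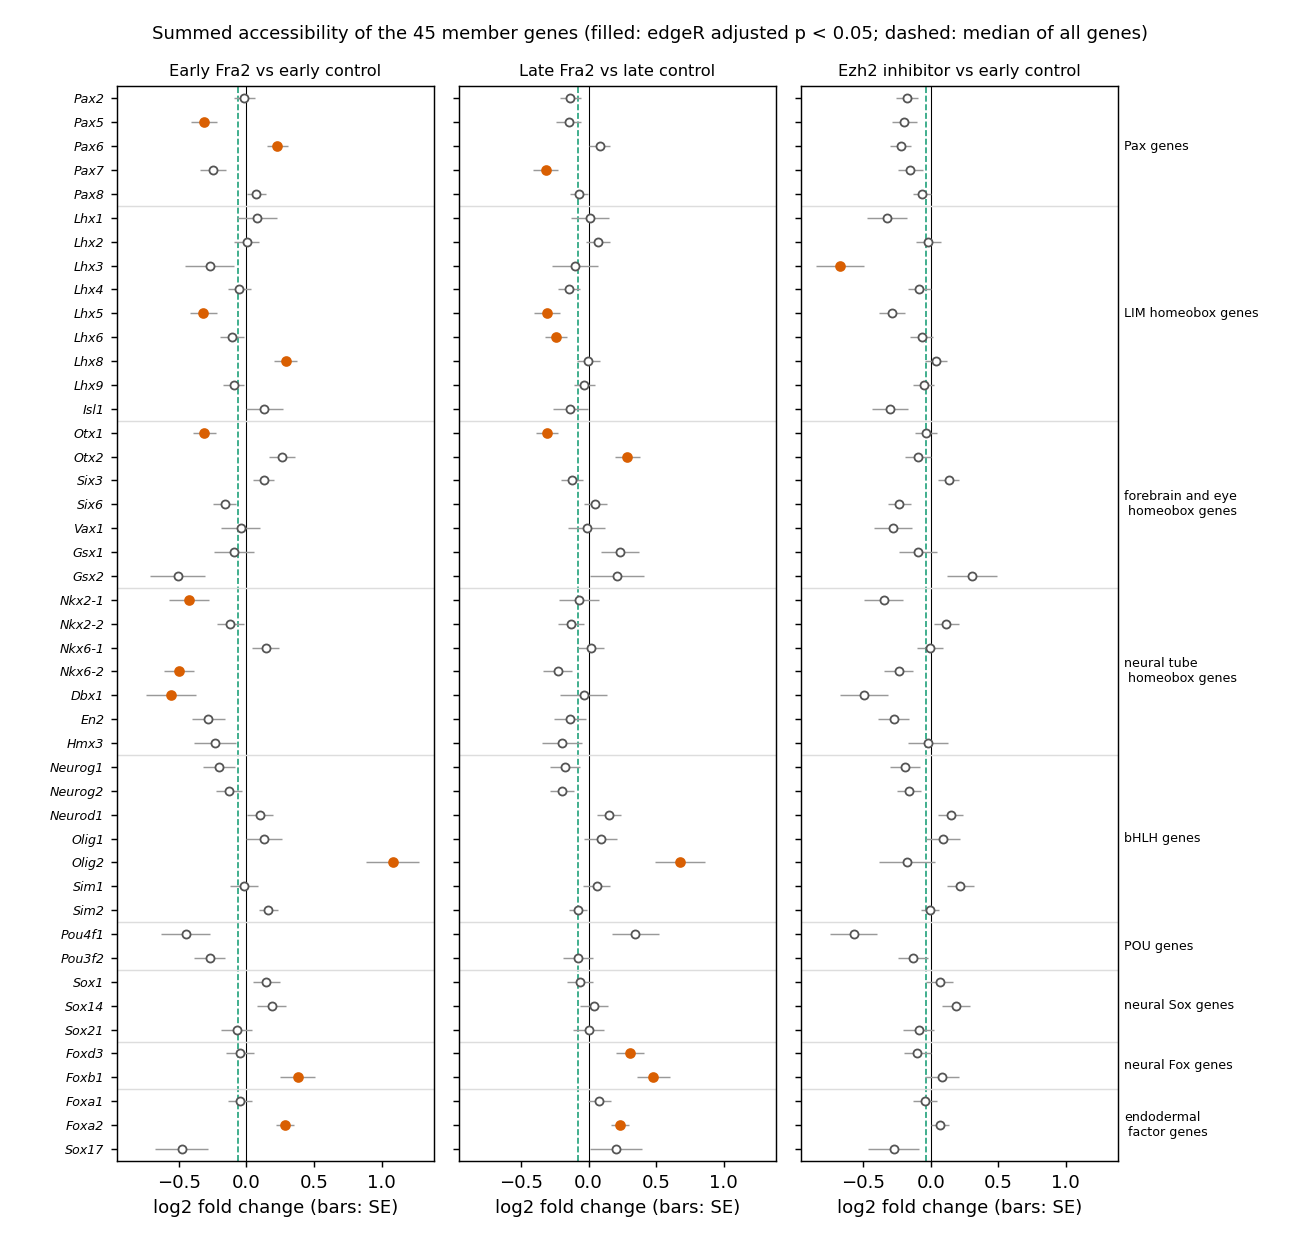
log2 difference in summed accessibility (± SE) of each of the 45 members in 3 comparisons, grouped by role, with called genes filled and the median of all genes dashed. Olig2 stands furthest to the right in both Fra2 comparisons, at 1.08 and 0.68, and Lhx3 is the filled point in the inhibitor comparison, at −0.67.

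Late Fra2 was compared with late control, a separate set of 3 libraries, to ask the same at the later time. Here 14 of 378 member peaks were higher and 14 lower (3.70% each), where 6.45% and 3.54% of all peaks were called. The groups were apart at all 28, a count again given without its share over all called peaks. The median log2 difference was −0.08 at member peaks and −0.01 at all peaks. Higher peaks again lay mostly outside the gene (11 of 14, median 47.3 kb), while 7 of 14 lower peaks did (median 18.6 kb). Over all tested peaks, 50.5% of higher and 25.1% of lower calls lay outside, again counting peaks too far from a gene to be assigned. By role, Pax genes had 2 peaks higher and 7 lower, LIM homeobox genes 3 and 3, forebrain and eye genes 1 and 2, bHLH genes 2 and 1, endodermal genes 3 and 1, neural Fox genes 3 and 0, and neural tube, POU and neural Sox genes none.

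The Lhx2 peak 25.8 kb upstream had the largest late gain, 3.44, 2.53 and 1.46 CPM in late controls against 6.29, 6.99 and 5.28 CPM in late Fra2, 1.35 ± 0.23 (SE; edgeR adjusted p = 5.44e-05). At the Pax6 intragenic peak, late controls had 3.88, 5.91 and 4.75 CPM and late Fra2 libraries 8.60, 9.49 and 8.72 CPM, 0.87 ± 0.17 (SE; edgeR adjusted p = 5.47e-04). Both were high in every late Fra2 library, and both stayed called when each library was left out. Foxa2 had 3 peaks higher, the largest difference (0.88 ± 0.24) at the distal element 92.2 kb from the gene and another (0.82 ± 0.25) 87.6 kb on the other side. Peaks of Foxb1 (1.12 ± 0.37), Lhx8 (1.09 ± 0.34), Olig2 (0.95 ± 0.28, 22.7 kb upstream), Lhx9 (0.80 ± 0.24), Foxd3, the neural crest factor (0.77 ± 0.20), and Otx2, a head and retina gene (0.70 ± 0.20), were also called higher. None of these 6 was called in every fit with a library left out.

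Losses at the late time were led by Pax7, Pax2, Otx1 and Foxa1. Pax7, a muscle stem cell and dorsal neural tube gene, fell at 3 peaks, among them a peak 39.2 kb upstream (chr4:139872527-139873028), with 3.66, 4.46 and 4.57 CPM in late controls and 2.27, 2.83 and 1.78 CPM in late Fra2, −0.88 ± 0.21 (SE; edgeR adjusted p = 0.00406). Foxa1, the partner of Foxa2 in endoderm, fell 40.0 kb downstream (chr12:57500393-57500894), from 3.44, 2.59 and 4.39 to 1.41, 1.97 and 2.09 CPM, −0.94 ± 0.26 (SE; edgeR adjusted p = 0.0133). All late Fra2 libraries were below all late controls at both. The gene-end peak of Otx1 again dropped, from 11.9, 12.3 and 10.9 to 6.68, 6.88 and 6.32 CPM, −0.82 ± 0.15 (SE; edgeR adjusted p = 2.50e-04), close to the early values. Pax2 lost at 2 peaks inside the gene (−0.78 ± 0.24 and −0.71 ± 0.24), the latter beside a start site, while its distal peak rose from 6.57, 8.21 and 6.03 to 10.3, 8.75 and 12 CPM (0.57 ± 0.17).

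At gene level 5 members were higher (Olig2 0.68 ± 0.18, Foxb1 0.48 ± 0.12, Foxd3 0.31 ± 0.10, Otx2 0.29 ± 0.09 and Foxa2 0.23 ± 0.07) and 4 lower (Pax7 −0.32 ± 0.09, Otx1 −0.31 ± 0.08, Lhx5 −0.31 ± 0.10 and Lhx6 −0.24 ± 0.08), where 6.63% and 17.4% of all genes were called. Olig2 summed to 5.75, 6.46 and 7.13 CPM in late controls and 9.55, 10.3 and 11.2 CPM in late Fra2, without overlap. The gains of Foxb1, Foxd3, Otx2 and Foxa2 came from distal peaks: over peaks within 10 kb the late log2 differences were −0.07, 0.00, 0.06 and −0.21, and none was called. Of the 18 genes named at peak level, 4 (Lhx2, Pax6, Pax7 and Otx1) kept their call in all 15 fits that left out a library, and the higher and lower counts fell to 5 and 4 without late Fra2 1, to 7 and 7 without late Fra2 2, to 8 and 8 without late Fra2 3, to 9 and 9 without late control 1, to 8 and 4 without late control 2 and to 4 and 6 without late control 3. Without early control 3, which enters this comparison through the shared estimate of spread, they were 22 and 21. Scaling on gene-end peaks gave 41 higher and 3 lower peaks, where 16.4% and 0.961% of all peaks were called, and 16 higher and 0 lower genes, where 35.4% and 2.22% of all genes were.

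**Figure D4:**
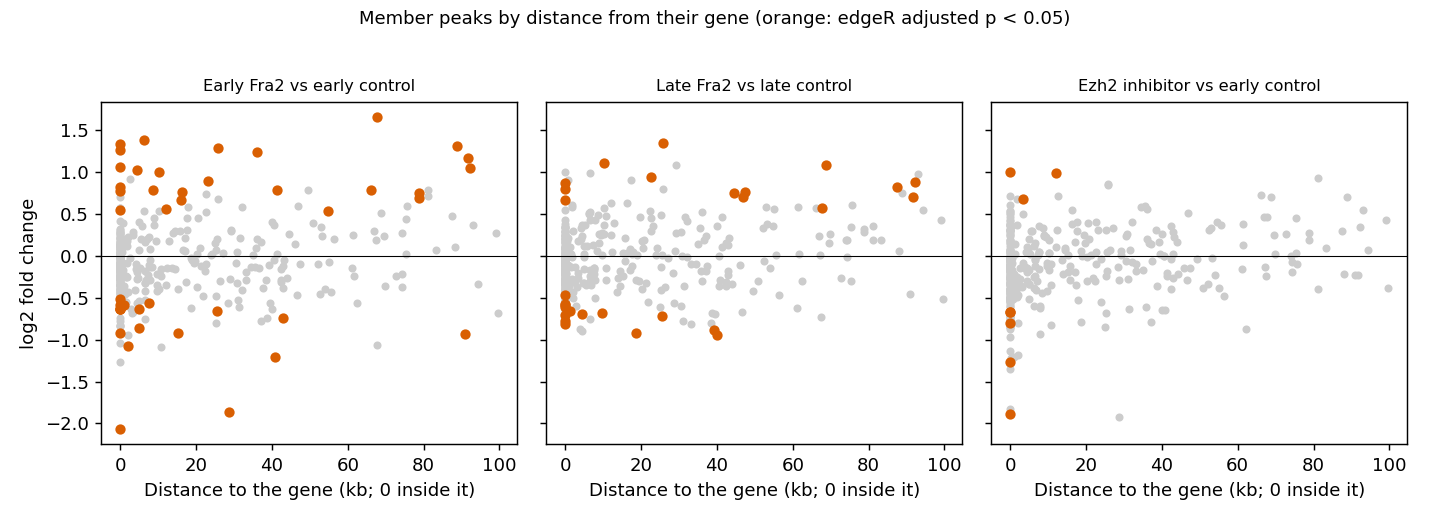
log2 difference of each of the 378 member peaks (vertical axis) against its distance to the gene in kb (horizontal axis) in 3 comparisons, with called peaks in orange. In both Fra2 comparisons most orange points above 0 lie outside the gene, 19 of 25 early and 11 of 14 late. Of all member peaks 56.3% lie outside. Of all higher peaks 49.8% and 50.5% do, counting peaks too far from a gene to be assigned, which members cannot have.

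Early and late Fra2 effects, which rest on separate controls, shared some elements. Of the 25 peaks higher early and 14 higher late, 6 were called at both times (24% and 42.9%): both overlapping Foxa2 peaks and those of Lhx2, Pax2, Pax6 and Sim2. Of the 18 and 14 lower, 3 were shared (16.7% and 21.4%), at Lhx2, Lhx5 and Otx1. The late difference had the same sign at 23 of the 25 early gains and 16 of the 18 early losses. The same shares over all called peaks are not given here, so this sharing is not shown to be particular to the members. When the late effect minus the early effect was tested directly, no member peak and no member gene was called by edgeR. Of all peaks 0.0116% and 0.0819% were called higher and lower, and of all genes 0.00546% and 0.00546%. DESeq2 called 1 member peak. An unadjusted edgeR p under 0.05 was found at 31 member peaks and 7 member genes, counts given without their shares over all peaks and genes. The nearest to the threshold was the distal Pax2 peak, with an effect of −1.08 ± 0.25 late relative to early (SE; edgeR adjusted p = 0.0511), and −1.13 with an edgeR adjusted p of 0.00922 without early control 3. So a call at 1 time alone does not show a difference between the times.

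**Figure D5:**
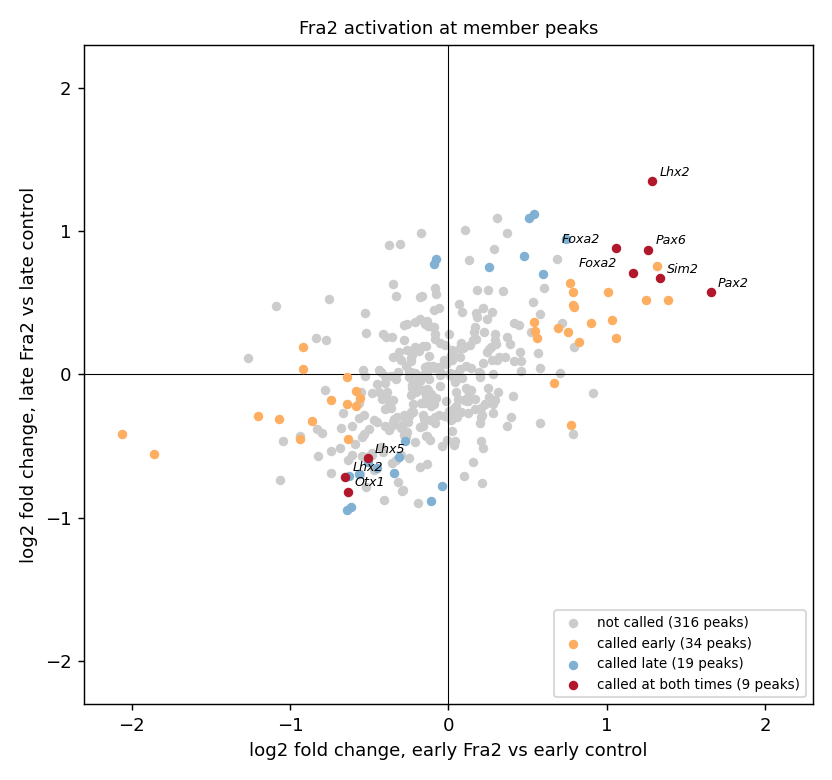
Early (horizontal) against late (vertical) Fra2 log2 difference of the 378 member peaks, coloured by whether the peak was called at neither time (316), early alone (34), late alone (19) or both (9). Pax2, Pax6 and Lhx2 lie high on both axes and Otx1 low on both.

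The Ezh2 inhibitor was compared with the early controls, the same 3 libraries as used for early Fra2. At 3 of the 378 peaks accessibility was higher and at 5 lower (0.794% and 1.32%), where 0.552% and 0.341% of all peaks were called, and 37 members had no called peak. The share of all genes without a called peak is not given here. Gsx2, a gene of the lateral ganglionic eminence, gained 12.1 kb upstream (chr5:75063207-75063708), from 3.33, 2.25 and 3.92 CPM in early controls to 5.67, 6.26 and 6.53 CPM with the inhibitor, 1.0 ± 0.23 (SE; edgeR adjusted p = 0.0221). Inside Sim2, the peak that rose with Fra2 measured 2.90, 5.31 and 4.35 CPM with the inhibitor, 1.0 ± 0.24 (SE; edgeR adjusted p = 0.0247). Inhibitor libraries were above all early controls at both. A peak 3.42 kb from Six3 rose by 0.69 ± 0.18 (SE; edgeR adjusted p = 0.0465), but was called in 4 of the 15 fits with a library left out, and gave 0.56 without early control 3 (edgeR adjusted p = 0.0683) and an adjusted p of 0.0559 with DESeq2. The Gsx2 and Six3 peaks lie over 1 kb from a start site, and Sim2 has no entry in the promoter table.

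Inside Lhx3, a pituitary and motor neuron factor (chr2:26205065-26205566), the inhibitor libraries had 1.45, 0.817 and 1.55 CPM against 2.15, 3.26 and 4.34 CPM in early controls, −1.27 ± 0.31 (SE; edgeR adjusted p = 0.0313). The Pax6 peak that gained with Fra2 was lower with the inhibitor, at 2.73, 3.50 and 3.15 CPM, −0.80 ± 0.19 (SE; edgeR adjusted p = 0.0290). Inside Pax5, a B cell and midbrain gene, 14.5, 12.2 and 10.5 CPM fell to 7.61, 8.26 and 8 CPM, −0.66 ± 0.16 (SE; edgeR adjusted p = 0.0267). All 3 inhibitor libraries were below all early controls at these peaks. At the Lhx6 gene end, which covers the promoter printed above and whose gene marks cortical interneurons, 7.25, 7.18 and 5.60 CPM fell to 4.00, 4.68 and 4.23 CPM, −0.66 ± 0.17 (SE; edgeR adjusted p = 0.0408). The remaining lower peak, inside Sox17 (−1.89 ± 0.40), again rested on early control 3 and gave −0.33 with no call without it. All 7 calls whose groups are apart were lost without inhibitor library 2, inhibitor library 3 or early control 2, and 6 without inhibitor library 1, while 12 peaks were called lower without early control 1.

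Across the 45 gene-end peaks the inhibitor libraries were low rather than high. The peaks summed to 187, 201 and 181 CPM in early controls, 167, 170.0 and 179 in early Fra2, 179.7, 182 and 189 in late controls, 169.9, 166 and 171 in late Fra2 and 158, 161 and 154 CPM with the inhibitor, so the inhibitor libraries lay below the other 12. Of the 45 peaks 1 was called (Lhx6), while 17 had an unadjusted p under 0.05, a count given without its share over all gene-end peaks. The fitted log2 difference was below 0 at 40 of 45 peaks, with a median of −0.29 against −0.15 at all gene-end peaks. Over all gene-end peaks it was below 0 at 73.1%. Without early control 3 it was below 0 at 39 of the 45, without early control 2 at 33 with a median of −0.21, and with scaling on gene-end peaks at 27 with a median of −0.15. The same medians were −0.18 against −0.22 for early Fra2 and −0.11 against −0.23 for late Fra2. These values describe the list, which was not tested as a set. At gene level no member was higher and 1 was lower with the inhibitor (0.557% and 1.53% of all genes were called): Lhx3, from 9.34, 12.8 and 17.1 to 8.92, 7.58 and 7.15 CPM, −0.67 ± 0.18 (SE; edgeR adjusted p = 0.0488). That call held in 5 of the 15 fits with a library left out. An unadjusted p under 0.05 was found at 14 members, a count given without its share over all genes. Scaled on gene-end peaks, 16 member peaks were higher, where 3.58% of all peaks were, and 3 genes were higher and 0 lower, where 16% and 0.645% of all genes were.

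Over the early Fra2, late Fra2 and inhibitor comparisons with a control, 34 members had at least 1 called peak and 11 had none: Isl1, Vax1, Gsx1, Nkx2-1, Nkx2-2, Hmx3, Neurog1, Pou4f1, Sox1, Sox14 and Sox21. The matching shares of all genes are not given here, so these counts are not shown to be particular to the members. The 11 hold 2 to 9 peaks each and 56 in all, so there was less to test at them than at Pax2 or Pax8, and their summed log2 differences ran from −0.57 to 0.35. Nkx2-1 was nevertheless called lower on its summed count in early Fra2, as given above. All 3 neural Sox genes are among the 11, Sox1 being an early marker of the neural plate.

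Early Fra2 and inhibitor libraries were also set against each other, which leaves out the shared controls. Of the 378 member peaks 30 were higher with early Fra2 and 17 lower (7.94% and 4.50%), where 9.02% and 5.2% of all peaks were called. All 47 stayed called without early control 3, and the counts rose to 38 and 21. That library is in neither group and enters only through the shared estimate of spread, so this is no check of the calls. Counts without single libraries of the groups compared are lower and are given below. Pax6 had the largest difference, 14.4, 13.7 and 10.9 CPM against 2.73, 3.50 and 3.15 CPM, 2.06 ± 0.17 (SE; edgeR adjusted p = 2.34e-13). At Olig2 the 6.35 kb peak measured 5.89, 6.32 and 5.33 CPM against 1.76, 1.59 and 1.79 CPM, 1.76 ± 0.23 (SE; edgeR adjusted p = 8.27e-08). Libraries of the groups were far apart at both. Gsx2 went the other way, 2.14, 2.32 and 2.88 CPM against 5.67, 6.26 and 6.53 CPM, −1.34 ± 0.23 (SE; edgeR adjusted p = 2.42e-05). Further peaks that were higher with Fra2 and held in every fit with a library left out belonged to Foxa2, Pax2, Six6, Pax8 and Lhx8, and a lower peak of Olig1 did so too.

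Of the 43 start-site peaks in 25 members, 4 differed here, all higher with Fra2: Isl1, Lhx1, Nkx6-2 and Foxa2. Of all start-site peaks 1.18% were higher and 2.19% lower. At Isl1, a motor neuron, heart and pancreas gene, 10.1, 11.0 and 9.58 CPM with Fra2 compared with 6.55, 7.40 and 6.49 CPM with the inhibitor and 9.18, 9.14 and 7.70 CPM in early controls, 0.58 ± 0.16 (SE; edgeR adjusted p = 0.00679). Fra2 libraries were above both other groups, and inhibitor libraries below both. The Lhx1 start-site peak had 1.90, 4.56 and 2.74 against 1.93, 1.63 and 1.28 CPM (0.88 ± 0.30), with overlap, and that of Nkx6-2 had 5.36, 4.24 and 3.46 against 2.15, 3.68 and 3.11 CPM (0.57 ± 0.20), also with overlap. These are the promoters printed above. Against their own controls, start-site peaks of members were called higher in no comparison, and lower at 2 peaks in early Fra2, 1 in late Fra2 and 1 with the inhibitor. Of all start-site peaks, 1.07% were higher and 7.82% lower in early Fra2, 0.533% and 10.1% in late Fra2, and 0.0247% and 0.602% with the inhibitor. At gene level 6 members were higher with early Fra2 than with the inhibitor (Olig2 1.26 ± 0.18, Pax6 0.45 ± 0.08, Isl1 0.43 ± 0.13, Otx2 0.36 ± 0.09, Lhx8 0.25 ± 0.08 and Foxa2 0.21 ± 0.07) and 2 lower (Gsx2 −0.81 ± 0.19 and Otx1 −0.28 ± 0.08), where 6.05% and 4.8% of all genes were called. Higher peaks numbered 18, 16 and 15 without inhibitor library 1, 2 and 3 and 17 without early Fra2 3, and lower peaks 9, 11 and 11 without inhibitor library 1, 2 and 3 and 6 without early Fra2 1.

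Between late and early controls, which differ in time alone per the labels apart from the day given for early control 3, 3 member peaks were higher and 1 lower (2.04% and 1.24% of all peaks were called). Inside Lhx1, early controls had 1.82, 2.25 and 1.26 CPM and late controls 5.60, 2.96 and 3.29 CPM, 1.07 ± 0.26 (SE; edgeR adjusted p = 0.0119). The distal Pax2 peak gave 0.64 ± 0.19. Both peaks were also higher in early Fra2, but that comparison uses the same early controls. A peak 54.7 kb from Neurod1, a neuronal and endocrine factor, rose by 0.69 ± 0.18 (SE; edgeR adjusted p = 0.0179). All 3 had groups apart. Lhx1 lost its call without late control 1 and Neurod1 without early control 2, late control 2 or late control 3, while Pax2 was called in 3 of the 15 fits and not by DESeq2 (adjusted p = 0.0717). Higher peaks numbered 6 without early control 3 and 1 without late control 1 or 2, and lower peaks 5, 3 and 2 without early control 1, early control 2 and early Fra2 1, and 0 without late control 3. The lower peak was that of Sox17 (−1.82 ± 0.42), which gave −0.27 with no call without early control 3. No member gene was called in either direction by edgeR (1.57% and 1.06% of all genes were), and 1 was called higher by DESeq2. An unadjusted p under 0.05 was found at 10 members, a count given without its share over all genes.

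In other gene lists, the early Fra2 comparison gave 48 of 601 peaks higher and 32 lower at other neural and endodermal regulators, 40 and 28 of 464 at mesodermal and limb regulators, and 34 and 18 of 286 at differentiated neuron and glia genes, while Hox genes had 5 and 23 of 310 and differentiated endoderm genes 22 and 5 of 156. With the inhibitor these lists had 4 and 6, 1 and 2, 0 and 2, 0 and 0, and 2 and 0 peaks called. The difference between lists was not tested. In the peak lists deposited for each library, between 11 (early control 3, the shallowest library) and 27 of the 45 members had a listed gene-end peak, and 112 to 340 of the 378 member peaks overlapped a listed peak, a count that moves with depth.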

How the data were processed

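Per the labels, Omni-ATAC-seq was run on 15 libraries in 5 groups of 3, taken from the sample titles. The deposited table holds raw read counts per consensus peak (206367 peaks, 206366 of them 502 bp wide), and the 15 deposited peak lists give a ratio to background (fold enrichment) with the −log10 of its p and of its q. Per the submitters' processing notes, MACS2 and mm10 were used; a version is missing. For the aligner, counting tool, read shift and consensus step the method is not given in the sources used here, and duplicates or repeats could affect low counts.

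Peaks were assigned to 21631 protein-coding RefSeq genes of GRCm38.p6 (88.7% assigned), and 0 count columns were left unused. Counts were tested with edgeR 4.0.16 (R 4.3.3): TMM scaling, default low-count filter (206349 peaks kept, 18 removed, all 378 member peaks kept), 1 quasi-likelihood fit of the 15 libraries on group means, with Benjamini-Hochberg adjustment over all peaks of a comparison. A second fit used counts summed over a gene's peaks (18301 genes). Standard errors are of the log2 difference. Replicates differed by more than sampling noise, so each was kept. The labels do not say whether replicate numbers pair libraries, and no pairing was used in the main fit. Deviations of same-numbered libraries correlated between −0.20 and 0.27. Between early control and early Fra2 the correlations were 0.27, −0.01 and 0.24 for numbers 1, 2 and 3. The highest with another number was −0.02, 0.13 and 0.02, so a partial pairing there is not excluded. Scripts were tested on simulated data.

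Alternatives were DESeq2 1.42.0, TMM factors from gene-end peaks, cyclic loess (limma 3.58.1), no filter, a replicate block, peaks within 10 kb, each library left out, and for the peak lists a −log10 q of 5 or more or an overlap of 250 bases. The members and all gene lists were chosen with earlier results of these data known. Peaks were named by rule: per comparison and direction, the called peak with the smallest p of each gene, where groups do not overlap, for up to 12 genes with the largest log2 difference. Other peaks in the text were chosen after their values were seen. Start-site peaks (centre within 1 kb of a RefSeq start, known for 38 members) were added after the files were read. Promoters printed are those of members with a called gene-end peak covering the window. Otx1 and Lhx5 have no entry in the promoter table. Counting limits cover counting error only.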

Additional observations from a re-analysis of the deposited data

How the results depend on the processing

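With TMM factors from gene-end peaks, early Fra2 had 41 peaks higher and 5 lower, late Fra2 41 and 3, the inhibitor 16 higher, the late minus early difference 1 lower and late against early control 8 higher; genes were 14 and 0 early, 16 and 0 late, 3 and 0 with the inhibitor, 1 higher between controls and 1 lower in early Fra2 against inhibitor. Over peaks within 10 kb, 9 peaks were higher early, 3 late, 1 between controls, and 12 higher and 9 lower in early Fra2 against inhibitor; genes were 2 higher early, 0 higher late, 2 lower with the inhibitor and 0 lower in early Fra2 against inhibitor. DESeq2 called 3 peaks lower with the inhibitor, 1 lower in the difference and 0 lower between controls, with 2 genes lower with the inhibitor and 1 higher between controls. Cyclic loess called 17 peaks lower with the inhibitor, 1 lower in the difference and 6 higher between controls. The replicate block called 1 peak lower in the difference, and 2 peaks lower and 1 gene higher between controls. It changed no other count by more than 1.5 times. The labels do not say whether the numbers pair the libraries. The causes of these moves were not tested. The shares of all peaks and genes called under these settings, or with a library left out, are not given in this section. The counts are therefore not shown to be particular to the members. Of 67 named peak calls, all 67 kept their side of the threshold without the filter, 66 with loess, 65 with the block, 61 with DESeq2 and 56 with gene-end scaling, and none reversed. Leaving out 1 library in turn, peaks higher and lower ranged over 17 to 29 and 10 to 19 (early Fra2), 4 to 22 and 4 to 21 (late Fra2), 0 to 3 and 0 to 12 (inhibitor), 0 and 0 to 1 (difference), 1 to 6 and 0 to 5 (controls), and 15 to 38 and 6 to 21 (early Fra2 against inhibitor). Genes ranged over 2 to 7 and 2 to 10, 2 to 5 and 0 to 5, 0 to 1 and 0 to 3, 0 and 0, 0 to 1 and 0 to 3, and 2 to 9 and 1 to 5 in the same order. Named early calls were lost without early Fra2 1 (Sox17, Sim1, En2, Lhx5, Lhx9, Pou3f2), early Fra2 2 (Sim1, En2, Dbx1, Pou3f2), early Fra2 3 (Sox17, Sim1, Lhx5, Lhx9, Dbx1), early control 1 (Sox17, Sim1, Dbx1, Pou3f2), early control 2 (Sox17, Lhx9, Dbx1) and early control 3 (Sim1, Lhx5, Dbx1, Pou3f2). Dbx1 and Pou3f2 were also lost without each inhibitor and each late Fra2 library, and Dbx1 without late control 3, so they were called in 3 and 5 of 15 fits. In the deposited peak lists, the shallowest library listed gene-end peaks of 11 members, 1 at a −log10 q of 5 or more, and 8 members had the same gene-end peak listed in every library, 1 at that q and 5 with an overlap of 250 bases. In early control 3, 3 reads are 0.420 CPM, which limits what can be seen at weak peaks.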
